A study of Mus musculus with 26 samples.

Results

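Regulatory T (Treg) cells sorted directly from mice lacking Tet2 and Tet3 in T cells were compared with Treg cells of control mice across all genes. The comparison took the 8 ex vivo Treg libraries of 26 in the series, 4 Tet2/3-deficient and 4 control, chosen by the group named in their columns of the deposited count table. The Tet2/3-deficient mice were Tet2 fl/fl Tet3 fl/fl Foxp3-eGFP CD4-Cre, and the control mice were Tet2 fl/fl Tet3 fl/fl Foxp3-eGFP without the Cre transgene. Both groups were on the C57BL/6 background and 3 weeks old, and in both the cells were CD4+ eGFP+ cells from spleen and lymph nodes. The Foxp3-eGFP reporter marks cells that express Foxp3. CD4-Cre acts in developing T cells before the CD4 and CD8 lineages part, so the T cells around the sorted cells carried the deletion too, and an effect within Treg cells and one of their surroundings cannot be told apart here. The labels do not say that the 4 libraries of a group came from separate animals, so each p-value measures the spread between these libraries.

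TET enzymes oxidise 5-methylcytosine in DNA, a step on the way to unmethylated cytosine, and in Treg cells they are known for keeping regulatory elements of Foxp3 unmethylated. FOXP3 works with partner factors such as RUNX1 with CBFB, ETS1, NFAT and GATA3, and with chromatin complexes, to switch on receptors and products of suppression and to hold down other T cell genes. Treg cells depend on interleukin-2 (IL-2) from other cells, which they bind through the receptor chains encoded by Il2ra, Il2rb and Il2rg.

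The libraries held 13397602 to 17672302 counts over genes. Levels below are CPM, a gene's count per 1000000 counts of its library, with library totals scaled by TMM, and changes are log2 fold changes of Tet2/3-deficient over control, ± SE, from edgeR's quasi-likelihood test, 2-sided, with Benjamini-Hochberg adjustment over all 11679 genes tested. Spearman's rho between libraries was 0.991 to 0.996 within the Tet2/3-deficient group, 0.986 to 0.996 within the control group and 0.973 to 0.984 between the groups. The control libraries S1 and S3 lay nearer the Tet2/3-deficient libraries on the first principal component (-20.1 and -21.7) than the control libraries S2 and S4 did (-37.3 and -37.1), with the Tet2/3-deficient libraries at 27.8 to 29.8. They also held more of the mitotic kinase gene Bub1, named after its values were seen, which was at 30.5, 33.4, 30.1 and 29 CPM in Tet2/3-deficient cells, against 16.5, 4.35, 13.1 and 3.5 CPM in controls S1 to S4. Summed B cell markers were at 203 to 269 CPM in the Tet2/3-deficient libraries and 163 to 364 CPM in the control libraries, the 2 highest being S1 and S3.

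The markers that define the sorted cells (Foxp3, Ikzf2, Il2ra, Ctla4, Tnfrsf18, Cd4, Cd3d and Cd3e) were present in all 8 libraries, at a summed 3917 to 4127 CPM in the Tet2/3-deficient and 4643 to 4927 CPM in the control libraries. Marker sums of other cell types moved with the groups for CD8 T cells (274 to 281 CPM in the Tet2/3-deficient against 144 to 169 CPM in the control libraries), for natural killer and innate lymphoid cells (35.8 to 61.8 against 13.1 to 16.9 CPM) and for immature thymocytes (41.9 to 56.1 against 60.6 to 84.3 CPM). Rises were called for 4 of the 7 CD8 markers (57.1%, beside 16.7% of all genes), Eomes, Nkg7, Klrd1 and Ctsw. The 2 that fell (28.6%, beside 15.8% of all genes) were the CD8 coreceptor genes Cd8a and Cd8b1, each at least 2-fold. Nkg7 (means of 133 and 37.3 CPM) and Eomes (29.4 and 4.1 CPM) made up much of the gap in the CD8 sum. Eomes also made up much of the gap in the natural killer sum. Of the natural killer and innate lymphoid markers 2 of 4 tested rose (50%, beside 16.7%), Eomes, also a CD8 marker, and Klrb1c. Of the thymocyte markers 2 of 5 tested fell (40%, beside 15.8%), and these were again Cd8a and Cd8b1. The natural killer genes Ncr1, Klre1, Klri2, Klra7 and Klra8 and the thymocyte genes Rag1, Rag2, Ptcra and Arpp21 were under 0.5 CPM. Invariant NKT markers summed to 1815 to 1974 CPM in the Tet2/3-deficient and 1802 to 2034 CPM in the control libraries, with Zbtb16 and Il4 under 0.5 CPM. Most of this sum was Il2rb (means of 1518 and 1498 CPM), so the sum says little about the other markers. Of the 8 invariant NKT markers tested 3 rose (37.5%, beside 16.7% of all genes) and 2 fell (25%, beside 15.8%). Myeloid markers summed to 92.5, 185, 300 and 302 CPM in Tet2/3-deficient S5 to S8, against 156, 139, 104 and 135 CPM in controls S1 to S4. The groups overlapped only through S5, the other Tet2/3-deficient libraries lying above all controls. Of 15 myeloid markers tested 1 rose (6.67%, beside 16.7% of all genes), Itgam (2.14 ± 0.29), and 0 fell, with a median of 0.54. The other 14 neither passed nor were steady within 1.5-fold. Erythroid and platelet markers (195 to 403 against 297 to 713 CPM) overlapped between the groups. The part of other cells in the results below was not tested, and fewer cells of a type and less RNA per cell cannot be told apart in such bulk libraries.

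The 3 TET genes were read first. Tet3 was at 112, 94.9, 96.6 and 114 CPM in Tet2/3-deficient libraries, compared with 163, 134, 129.8 and 172 CPM in controls, with no overlap, and fell 1.44-fold (-0.52 ± 0.10, adjusted p = 0.00255). Tet2 was at 16.3, 12.5, 15.6 and 12 CPM in Tet2/3-deficient cells, against 15.1, 14.5, 10.2 and 15.7 CPM in controls, which overlapped (0.02 ± 0.15, adjusted p = 0.93). Tet1, which was not targeted, stood at 27.7, 22.1, 22.4 and 18.5 CPM in Tet2/3-deficient libraries, compared with 24.8, 18.2, 12.6 and 16.2 CPM in controls and did not pass the test (0.34 ± 0.19, adjusted p = 0.204), though it passed without control S1 (adjusted p = 0.0218). Gene-level counts cannot single out the floxed exons, so the deletion rests on the labels.

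Across all genes, 3800 of 11679 (32.5%) passed the test at an adjusted p under 0.05, 1953 higher (16.7%) and 1847 lower (15.8%) in the Tet2/3-deficient cells. Most changes were small. A gene was called steady where the whole 95% interval of its fold change lay inside 1.5-fold in either direction, and 7495 genes (64.2%) were steady. These included 1633 genes (14% of those tested) that passed the test with a small change, while 5862 (50.2%) were steady and did not pass. Another 2017 genes (17.3%) neither passed nor were steady, so that for them a change past 1.5-fold was neither shown nor bounded. At least 2-fold changes passed the test for 419 genes higher (3.59%) and 223 lower (1.91%), and 169 genes, 87 higher and 82 lower, passed when the test itself required more than a 2-fold change. The groups did not overlap, with all Tet2/3-deficient libraries above all control libraries, for 2079 genes (17.8%), and below them for 1823 (15.6%).

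**Figure D1:**
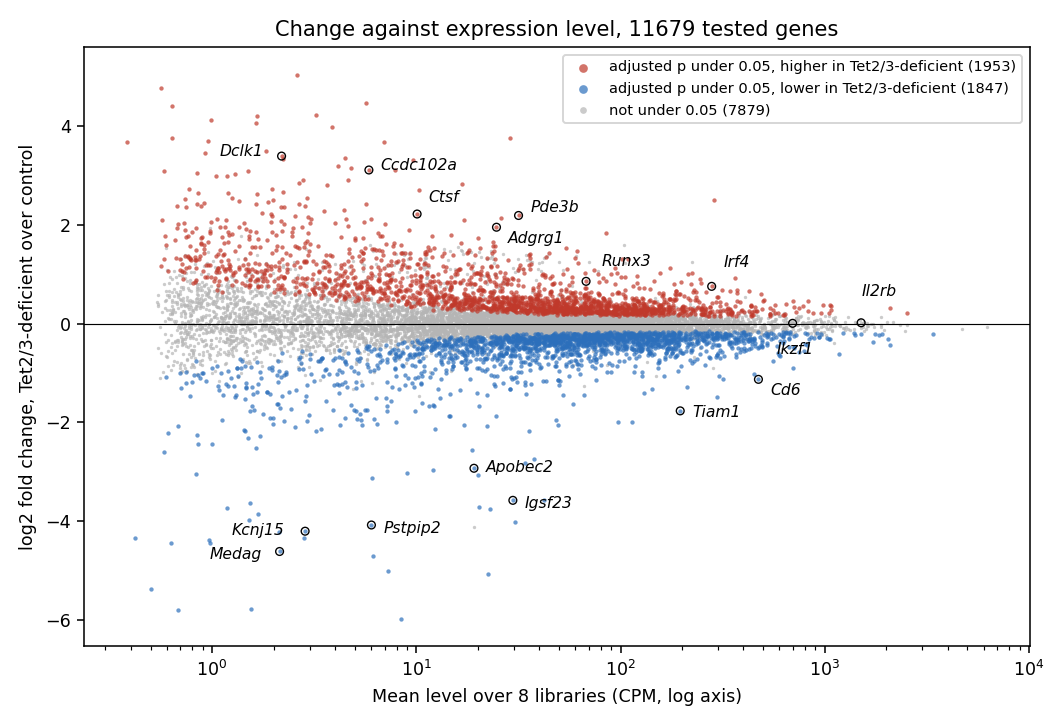
Log2 fold change of Tet2/3-deficient over control (vertical axis) against the mean level over 8 libraries (horizontal axis, CPM, log scale) for 11679 tested genes; each point is a gene, coloured by the test, with genes named in the text circled. Changes past 4-fold sit mostly at low and middle levels, and Il2rb and Ikzf1 lie on the zero line at high levels.

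The naming rule took the 25 largest changes in each direction among genes with at least 10 CPM in one of the groups. Pstpip2, an F-BAR adaptor that bends membranes and whose loss causes autoinflammatory disease in mice, was at 0.369, 0.738, 0.722 and 0.801 CPM in Tet2/3-deficient cells, against 11.9, 10.8, 10.9 and 12.1 CPM in controls, 16.9-fold lower (-4.08 ± 0.20, adjusted p = 1.27e-07). Sdcbp2, which encodes the scaffold syntenin-2, was at 2.58, 3.69, 2.39 and 2.74 CPM in Tet2/3-deficient libraries, compared with 33.4, 45, 36.6 and 35.6 CPM in controls (-3.72 ± 0.15, adjusted p = 3.59e-08). The immunoglobulin superfamily gene Igsf23 had 3.91, 4.18, 5.39 and 4.74 CPM in Tet2/3-deficient cells, against 46.4, 61.6, 56.1 and 55.3 CPM in controls (-3.58 ± 0.13, adjusted p = 2.2e-08). In all 3 genes the groups stood far apart, and the spread within each group was small beside the gap.

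Among others of the 25 that fell most were Actg2, the smooth muscle gamma actin (13.5-fold lower, -3.75 ± 0.20), Xdh, the xanthine dehydrogenase that makes uric acid (8.37-fold lower, -3.07 ± 0.13), the coagulation transglutaminase chain F13a1 (-3.02 ± 0.24), the planar polarity gene Prickle1 (-2.14 ± 0.14) and Tbc1d30, which encodes a Rab GTPase-activating protein (-2.82 ± 0.14). Tcf7l1, a TCF/LEF factor of the Wnt pathway, had 2.73, 1.85, 3.05 and 2.34 CPM in Tet2/3-deficient libraries, compared with 13.9, 8.83, 7.5 and 11 CPM in controls (-2.04 ± 0.22, adjusted p = 6.51e-05). Its relatives Lef1 (-0.50 ± 0.07) and Tcf7 (-0.28 ± 0.08) fell by less. The phosphodiesterase gene Pde2a, whose enzyme breaks down cyclic AMP and cyclic GMP, fell 3.99-fold, to 36.5, 53.3, 49.4 and 42.1 CPM in Tet2/3-deficient cells, against 192, 172, 206 and 155 CPM in controls (adjusted p = 3.15e-06).

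Pde3b, a cyclic AMP phosphodiesterase that FOXP3 is known to hold down, moved the other way. It was at 39.2, 52.2, 49.6 and 67.3 CPM in Tet2/3-deficient libraries, compared with 7.31, 11.7, 8.04 and 18.1 CPM in controls, 4.58-fold higher (2.19 ± 0.31, adjusted p = 0.00149). The lysosomal protease gene Ctsf, which encodes cathepsin F, had 17.1, 17.7, 16 and 15.8 CPM in Tet2/3-deficient cells, against 3.69, 3.33, 3.28 and 3.9 CPM in controls (2.22 ± 0.12, adjusted p = 2.62e-07). Adgrg1, an adhesion receptor known from human cytotoxic lymphocytes, was at 49.3, 32.4, 35 and 40.4 CPM in Tet2/3-deficient libraries, compared with 11.9, 9.02, 10.2 and 9.35 CPM in controls (1.96 ± 0.14, adjusted p = 3.47e-06). In all 3 the lowest Tet2/3-deficient library lay above the highest control library. Ccdc102a had 11.5, 8.86, 10.1 and 11.6 CPM in Tet2/3-deficient cells, against 1.52, 0.64, 1.54 and 1.15 CPM in controls (3.12 ± 0.23, adjusted p = 3.5e-06).

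Among other large rises were the Wnt ligand gene Wnt10a (3.44-fold, 1.78 ± 0.18), the sialyltransferase gene St3gal6 (2.01 ± 0.21), the Cdc42-binding kinase gene Cdc42bpa (1.77 ± 0.17) and the co-chaperone gene Bag2 (1.84 ± 0.25). Phf19, a subunit that joins the Polycomb complex PRC2, was at 19.3, 23.3, 22.1 and 27.2 CPM in Tet2/3-deficient libraries, compared with 11.2, 4.54, 6.9 and 4.02 CPM in controls (1.80 ± 0.30, adjusted p = 0.00229), with control S1 the highest of its group. Its PRC2 partners differed among themselves, with Ezh2, the methyltransferase, higher (0.79 ± 0.10), Eed higher by less (0.18 ± 0.06) and Suz12 steady (0.14 ± 0.07). The adjusted p of Eed was 0.0826 to 0.124 without Tet2/3-deficient S5, S6 or S7 or without control S2 or S4, and 0.0579 with the length offset described below. Car2, a carbonic anhydrase, varied widely among Tet2/3-deficient libraries (13.6, 33.5, 45.5 and 18.1 CPM, against 3.69, 4.61, 10.9 and 6.54 CPM in control libraries; 2.11 ± 0.50), and its adjusted p was 0.0513 without control S2. Gm4858 had 12.2, 23.3, 19.9 and 14.8 CPM in Tet2/3-deficient cells, against 0.94, 1.47, 1.67 and 2.81 CPM in controls (3.32 ± 0.31, adjusted p = 5.43e-05). It and Tdpoz4 (3.11 ± 0.33) belong to a cluster of near-identical copies whose reads could be split between them, so the gene of origin is uncertain.

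A set chosen after its values were seen held genes present in one group and near absent in the other, at 1 CPM or more in all libraries of a group and under 0.5 CPM in all libraries of the other. There were 15 such genes on in the Tet2/3-deficient cells and 14 off, of 16286 genes with any count, and their levels were low, with a median of 2.06 and 2.97 CPM in the group where they were on. Dclk1, a doublecortin-like kinase of neurons and gut tuft cells, was at 4.06, 4.49, 3.33 and 4.14 CPM in Tet2/3-deficient libraries, compared with 0.362, 0.256, 0.469 and 0.402 CPM in controls (3.40 ± 0.25, adjusted p = 3.43e-06). Cdh1, which encodes E-cadherin, an epithelial adhesion molecule and a ligand of the receptors encoded by Klrg1 and Itgae, was at 2.06, 2.28, 2.5 and 1.6 CPM in Tet2/3-deficient cells, against 0.289, 0.256, 0.335 and 0.172 CPM in controls (2.99 ± 0.30, adjusted p = 3.68e-05). Also on were the extracellular matrix genes Col6a2 and Frem2, the prohormone convertase gene Pcsk1 and the dynamin gene Dnm3. The potassium channel gene Kcnj15 was off, at 0.295, 0.369, 0.278 and 0.2 CPM in Tet2/3-deficient libraries, compared with 5.28, 5.18, 4.62 and 6.6 CPM in controls (-4.21 ± 0.25, adjusted p = 7.16e-07), and so was Medag, at 0.147, 0.185, 0.0555 and 0.267 CPM in Tet2/3-deficient cells, against 3.83, 4.74, 4.22 and 3.67 CPM in controls (-4.62 ± 0.32, adjusted p = 2.22e-06). The other genes that were off included the TGF-beta binding protein gene Ltbp1, the Wnt-induced matrix gene Wisp1, Popdc2 and the galectin gene Lgals7.

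The size of the estimated change and its direction went with expression level. The median absolute log2 fold change was 0.556 among 446 genes under 1 CPM, 0.212 among 2478 genes at 10 to 30 CPM and 0.102 among 80 genes at 1000 CPM or more, while the share of steady genes was 0.448%, 65.5% and 96.2% in these ranges. The median SE fell in step, at 0.361, 0.115 and 0.0645. How much of the larger estimates at low levels was sampling spread was not tested. At least 2-fold rises were called for 15.5% of genes under 1 CPM and for 0 of the 651 genes at 300 CPM or more, of which 4 fell at least 2-fold. The balance of direction turned with level too. Of the genes called under 3 CPM 70.6% were higher in the Tet2/3-deficient cells, against 32.5% of those called at 300 CPM or more. When genes were ranked by FPKM, which divides by exon length, the low end kept 68.1% higher below 1 FPKM but the high end moved to 52.2% at 100 FPKM or more.

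Calls also went with exon length. Among genes with under 1 kb of exons 26.9% rose and 5.53% fell, and among genes with 6 kb or more 12% rose and 22.6% fell. The median deviation of short genes from their mean over the 8 libraries was 0.04 to 0.07 (log2) in the Tet2/3-deficient libraries and -0.14 to 0.07 in the control libraries, the 0.07 being S3, and that of long genes was -0.07 to 0.02 in the Tet2/3-deficient and -0.03 to 0.12 in the control libraries, with S4 the farthest at both lengths. What lay behind this trend was not tested. With each library's length trend removed as an offset, chosen after seeing the data, 15.2% of short genes rose and 16.1% fell, 17.6% of long genes rose and 16.3% fell, and the totals were 2006 higher and 1872 lower. Results on families of short genes below are given with and without this offset.

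**Figure D2:**
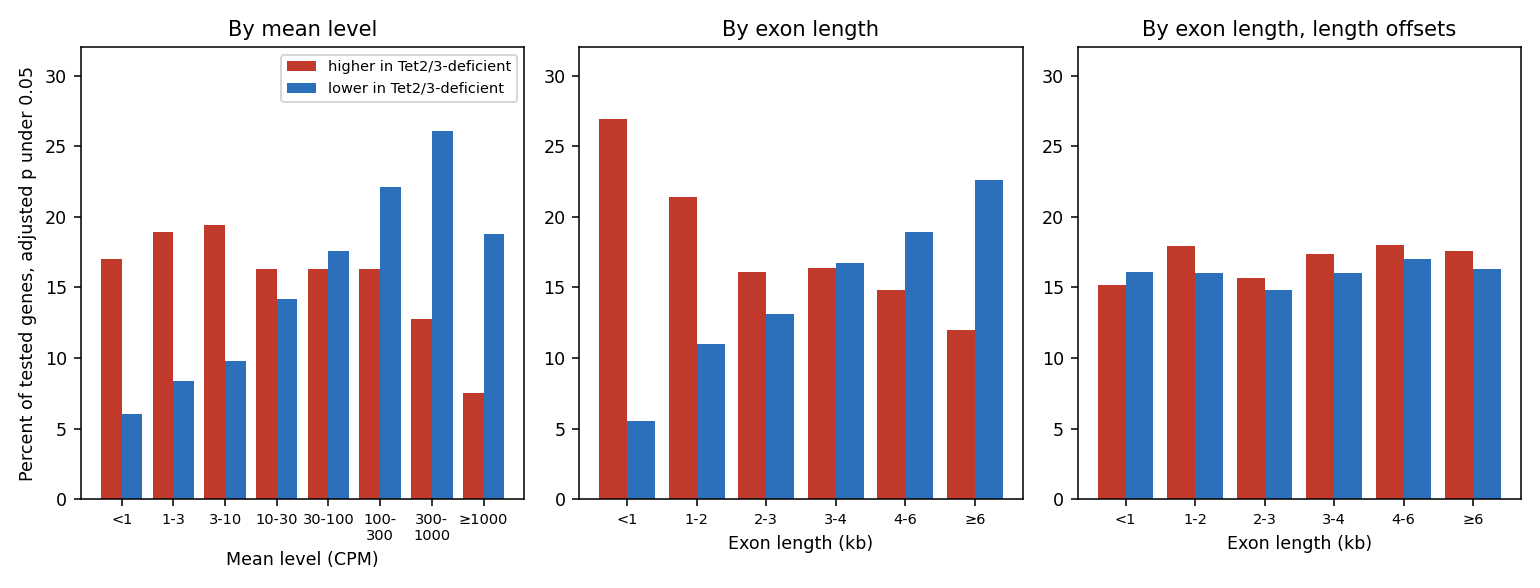
Percent of tested genes that were higher (red) or lower (blue) in Tet2/3-deficient cells at an adjusted p under 0.05 (vertical axes), by mean level in CPM (left), by exon length in kb (middle) and by exon length with a length offset per library (right). Higher calls outnumber lower ones below 30 CPM and below 3 kb, and the length trend is absent with the offset.

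Treg genes were read from a list of 211 genes in the table, grouped by role, of which 209 were tested and the rest were under the count filter. Against the share of all genes above, 92 of the 209 fell (44%, beside 15.8% of all genes), 26 rose (12.4%, beside 16.7%) and 91 did not pass. Their median log2 fold change was -0.20, beside 0.00 over all genes. Of the 209, 110 were steady (52.6%, beside 64.2% of all genes), 75 of them without passing the test, and 16 were neither called nor steady. Across 13 other fits (RLE factors, no count filter, all libraries of the table, DESeq2, limma on FPKM and each library left out), 78 of the 92 passed as lower in all, 20 of the 26 as higher in all and 98 of the 110 were steady in all. Over all tested genes, 1207 of 1847 falls, 1221 of 1953 rises and 6619 of 7495 steady genes held in all 13.

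Among 49 transcription factors 22 fell (44.9%, beside 15.8% of all genes), 4 rose (8.16%, beside 16.7%) and 26 were steady (53.1%, beside 64.2%). The Ikaros family was split, with Ikzf1 and Ikzf3 steady and Ikzf2 (-0.57 ± 0.07) and Ikzf4 (-0.86 ± 0.08) lower. Also steady were Gata3, Stat5a, which carries the IL-2 signal, the NF-kB gene Nfkb1 and the AP-1 gene Batf. Ikzf1 was at 722, 699, 676 and 696 CPM in Tet2/3-deficient libraries, compared with 710.2, 719.9, 659 and 688 CPM in controls, with a 95% interval of -0.10 to 0.12 on the log2 scale. The groups overlapped almost fully. Maf, a factor known to drive Il10 in T cells, was at 73.8, 94.6, 86.2 and 88.3 CPM in Tet2/3-deficient cells, against 154, 193, 159 and 171 CPM in controls and fell 1.97-fold (-0.98 ± 0.09, adjusted p = 1.85e-05). Prdm1, which encodes Blimp-1 of effector Treg cells, was at 14.8, 30.8, 18.5 and 12.3 CPM in Tet2/3-deficient libraries, compared with 35.4, 44.9, 46 and 46.7 CPM in controls (-1.17 ± 0.27, adjusted p = 0.0126). The NFAT genes Nfatc1 (-0.71 ± 0.08) and Nfatc2 (-0.46 ± 0.08), Foxp1 (-0.51 ± 0.09) and Foxo3 (-0.63 ± 0.08) also fell.

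Irf4, a factor of T cell receptor signalling and effector Treg cells, rose, with 394, 345, 337 and 329 CPM in Tet2/3-deficient cells, against 233, 194, 221 and 183 CPM in controls (0.76 ± 0.09, adjusted p = 8.78e-05). The 3 RUNX genes differed in direction. Runx1 was at 76.6, 85.4, 84.7 and 86.5 CPM in Tet2/3-deficient libraries, compared with 109.7, 135, 106 and 134 CPM in controls (-0.54 ± 0.09, adjusted p = 0.000898), and Runx2 at 5.31, 8.3, 7.38 and 5.08 CPM in Tet2/3-deficient cells, against 15.1, 13.5, 11.3 and 15.3 CPM in controls (-1.08 ± 0.17, adjusted p = 0.000802). Runx3, best known for the CD8 lineage, was at 79.3, 86.9, 86.2 and 97.3 CPM in Tet2/3-deficient libraries, compared with 45.7, 47.4, 48.3 and 51.4 CPM in controls (0.86 ± 0.07, adjusted p = 1.24e-05). In each of the 3 the groups did not overlap. Their shared partner gene Cbfb was steady, at 252, 246, 240.1 and 245 CPM in Tet2/3-deficient cells, against 239, 238, 269 and 236 CPM in controls, with an interval of -0.13 to 0.13.

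Of 24 FOXP3 partners and chromatin genes 17 were steady (70.8%, beside 64.2% of all genes), 5 rose (20.8%, beside 16.7%) and 3 fell (12.5%, beside 15.8%), shares near those of all genes. The steady ones included the NuRD remodeller gene Chd4 (0.03 ± 0.06), the acetyltransferase genes Ep300 (-0.16 ± 0.10) and Kat5 (-0.14 ± 0.08) and the deubiquitinase gene Usp7 (-0.01 ± 0.06). The cyclic AMP responsive repressor gene Crem rose (0.83 ± 0.11). Uhrf1, which brings the maintenance methyltransferase to replicated DNA, was at 135, 155, 142 and 151 CPM in Tet2/3-deficient libraries, compared with 92.8, 33.2, 79.7 and 29.2 CPM in controls (1.32 ± 0.39, adjusted p = 0.0375). Its control values split as those of Bub1 did, with S1 and S3 high, and its adjusted p was 0.0547 to 0.0925 when any one of 6 libraries was left out. Without control S1 and S3 its log2 fold change was 2.22.

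Among 61 surface receptors 33 fell (54.1%, beside 15.8% of all genes), 7 rose (11.5%, beside 16.7%) and 29 were steady (47.5%, beside 64.2%). The IL-2 receptor chains belonged to the steady ones. Il2rb was at 1512, 1520.5, 1574 and 1463 CPM in Tet2/3-deficient cells, against 1677, 1433, 1456 and 1426 CPM in controls (95% interval -0.12 to 0.15 on the log2 scale), Il2rg differed by -0.04 ± 0.08 and Il2ra by -0.17 ± 0.08. The costimulatory receptor gene Cd27 was at 366, 384, 387 and 387 CPM in Tet2/3-deficient libraries, compared with 298, 400.5, 390.4 and 378 CPM in controls (interval -0.13 to 0.24). Also steady were Cd28 (-0.14 ± 0.07), Tnfrsf4, which encodes OX40 (-0.15 ± 0.07), and Tnfrsf9, which encodes 4-1BB (0.05 ± 0.07).

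The receptors that fell included several for ligands that Treg cells sense. Cd6, a scavenger receptor relative that sits with the T cell receptor, was at 291, 269.8, 306 and 323 CPM in Tet2/3-deficient cells, against 670, 723, 597 and 610 CPM in controls and fell 2.19-fold (-1.13 ± 0.08, adjusted p = 2.07e-06). Il6st, which encodes the shared receptor chain gp130, was at 212, 206, 193 and 178 CPM in Tet2/3-deficient libraries, compared with 416, 461, 374 and 401 CPM in controls (-1.07 ± 0.08, adjusted p = 3.15e-06). Lrrc32, whose product GARP holds latent TGF-beta on the Treg surface, was at 200.3, 209, 158 and 176 CPM in Tet2/3-deficient cells, against 272, 356, 336 and 361 CPM in controls (-0.83 ± 0.11, adjusted p = 0.000235). None of these 3 overlapped between the groups. The growth factor receptor gene Igf1r (-0.98 ± 0.12), the adenosine receptor gene Adora2a (-0.77 ± 0.08), the ectonucleotidase gene Nt5e, which makes adenosine (-0.61 ± 0.10), the IL-10 receptor gene Il10ra (-0.77 ± 0.10), the prostaglandin receptor gene Ptger2 (-0.64 ± 0.10), the TNF receptor gene Tnfrsf1b (-0.63 ± 0.07) and the integrin gene Itgb8 (-0.51 ± 0.11) fell too.

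The inhibitory receptor gene Havcr2, which encodes TIM-3, rose, with 11.6, 19.2, 14.9 and 11.3 CPM in Tet2/3-deficient libraries, compared with 5.06, 5.76, 6.7 and 7.17 CPM in controls (1.20 ± 0.19, adjusted p = 0.000614). Lag3 (0.61 ± 0.11) and the costimulatory receptor gene Icos (0.46 ± 0.09) rose by less, while the inhibitory receptor gene Tigit fell (-0.55 ± 0.13; adjusted p = 0.0546 without control S1 and S3).

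**Figure D3:**
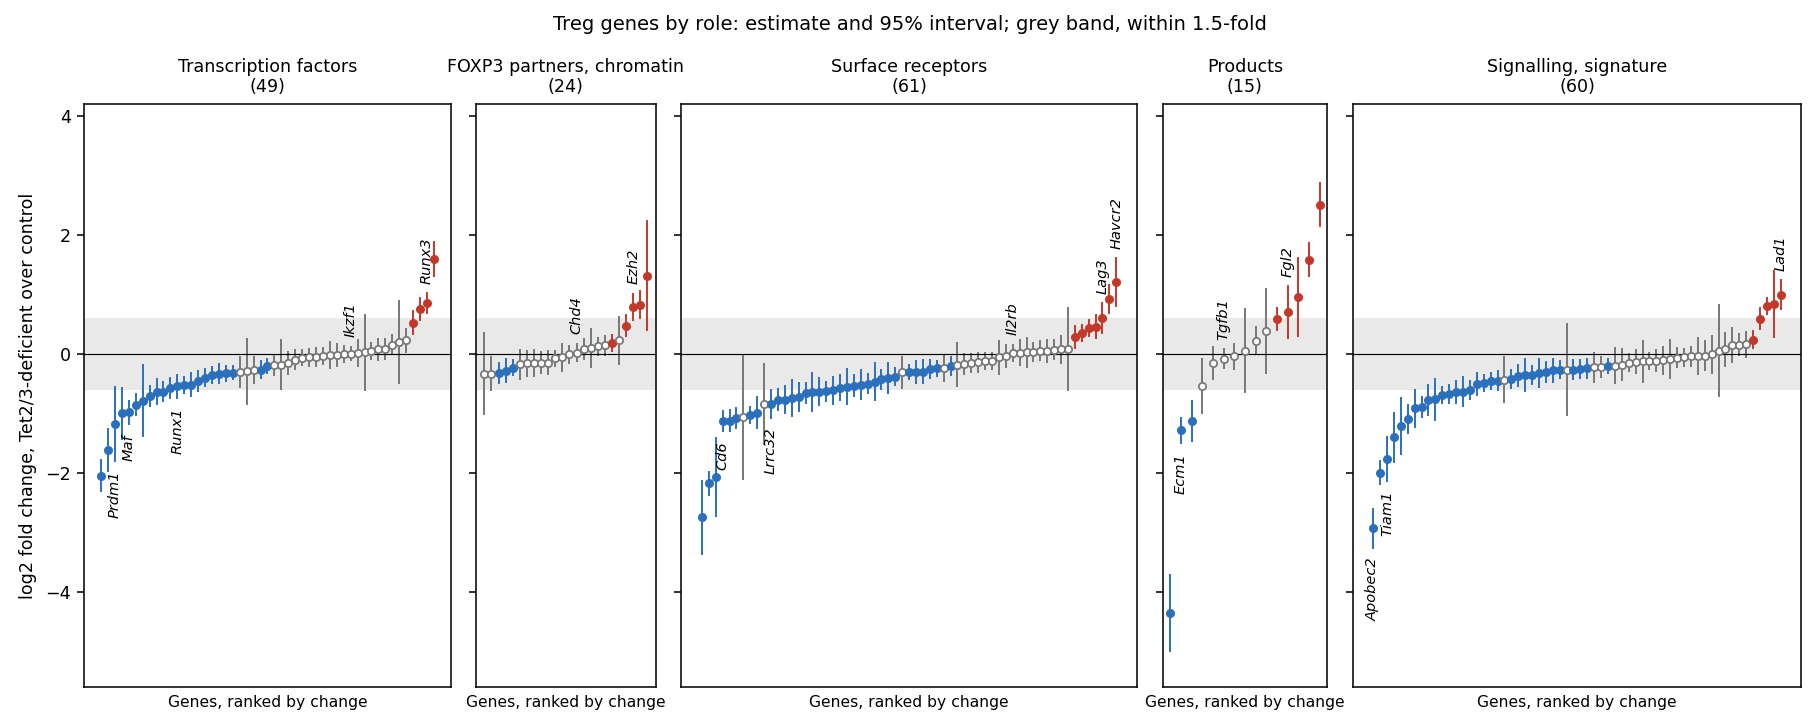
Log2 fold change of Tet2/3-deficient over control (points) with its 95% interval (lines) for 209 Treg genes in 5 roles, ranked within each role; red and blue mark genes higher or lower at an adjusted p under 0.05, open points the others, and the grey band fold changes inside 1.5-fold. Lower genes outnumber higher ones among transcription factors, surface receptors and signalling genes, and 110 intervals lie inside the band.

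Of 15 suppressor and repair products 3 fell (20%, beside 15.8% of all genes), 5 rose (33.3%, beside 16.7%) and 4 were steady (26.7%, beside 64.2%). Tgfb1 was steady at 223, 229.9, 217 and 257 CPM in Tet2/3-deficient cells, against 229, 236, 267 and 245 CPM in controls (interval -0.23 to 0.08), as were the galectin genes Lgals1 (-0.15 ± 0.12) and Lgals9 (-0.04 ± 0.09). Ecm1, a secreted matrix protein gene, was at 117, 110, 123 and 145 CPM in Tet2/3-deficient libraries, compared with 263, 323, 287 and 332 CPM in controls and fell 2.44-fold (-1.28 ± 0.10, adjusted p = 4.47e-06). Ebi3, a subunit of IL-27 and IL-35, fell (-1.12 ± 0.15), and Fgl2, a secreted fibrinogen relative, rose (0.70 ± 0.19), at an adjusted p of 0.0509 to 0.0599 without control S1, control S4 or Tet2/3-deficient S7.

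Of 60 signalling and signature genes 31 fell (51.7%, beside 15.8% of all genes), 5 rose (8.33%, beside 16.7%) and 34 were steady (56.7%, beside 64.2%). Apobec2, a member of the APOBEC deaminase family, was at 5.24, 4, 4.78 and 3.74 CPM in Tet2/3-deficient cells, against 36.5, 31.1, 40.3 and 27.6 CPM in controls, 7.63-fold lower (-2.93 ± 0.15, adjusted p = 2.24e-07). Tiam1, an exchange factor that activates the GTPase Rac, was at 111, 82.1, 79 and 84.6 CPM in Tet2/3-deficient libraries, compared with 394, 298, 251 and 269 CPM in controls (-1.77 ± 0.16, adjusted p = 0.000116). The groups were apart in both. The calcium-binding protein gene S100a4 (-1.40 ± 0.18), the MAP kinase phosphatase gene Dusp6 (-1.09 ± 0.10) and Socs3 (-0.76 ± 0.15), a brake on gp130 signalling, fell as well.

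Bcl2l11, which encodes the death protein BIM, was at 298, 277, 280.1 and 274 CPM in Tet2/3-deficient cells, against 176, 154, 151 and 164 CPM in controls and rose 1.75-fold (0.81 ± 0.06, adjusted p = 5.07e-06). Of its BCL2 family partners Mcl1 was steady (-0.11 ± 0.08) and Bcl2 differed by -0.22 ± 0.11, which did not pass, though it did without Tet2/3-deficient S5 (adjusted p = 0.0154). Lad1, a Treg signature gene, had 111, 105, 114 and 148 CPM in Tet2/3-deficient libraries, compared with 60, 55.4, 56 and 67.6 CPM in controls (1.00 ± 0.11, adjusted p = 7.92e-05). The T cell receptor kinase gene Prkcq (-0.15 ± 0.07) was steady without passing the test, which it passed without control S1 (adjusted p = 0.0425).

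Genes that Treg cells keep low relative to other CD4+ T cells did not move one way. Of 26 tested 5 rose (19.2%, beside 16.7% of all genes), 7 fell (26.9%, beside 15.8%), 14 did not pass and 15 were steady (57.7%, beside 64.2%), with a median of -0.02. Besides Pde3b, the rises included the transporter gene Slc16a5 (1.77 ± 0.30) and the phosphatase gene Ptpn3 (0.64 ± 0.13). Cd40lg, the ligand by which helper cells signal to B cells, was at 8.92, 8.12, 8 and 12 CPM in Tet2/3-deficient cells, against 23, 26.2, 20.2 and 24.7 CPM in controls and fell 2.54-fold (-1.35 ± 0.14, adjusted p = 5.43e-05). The cytokine genes Il2, Il4, Il17a and Il21 of this list were under the count filter.

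**Figure D4:**
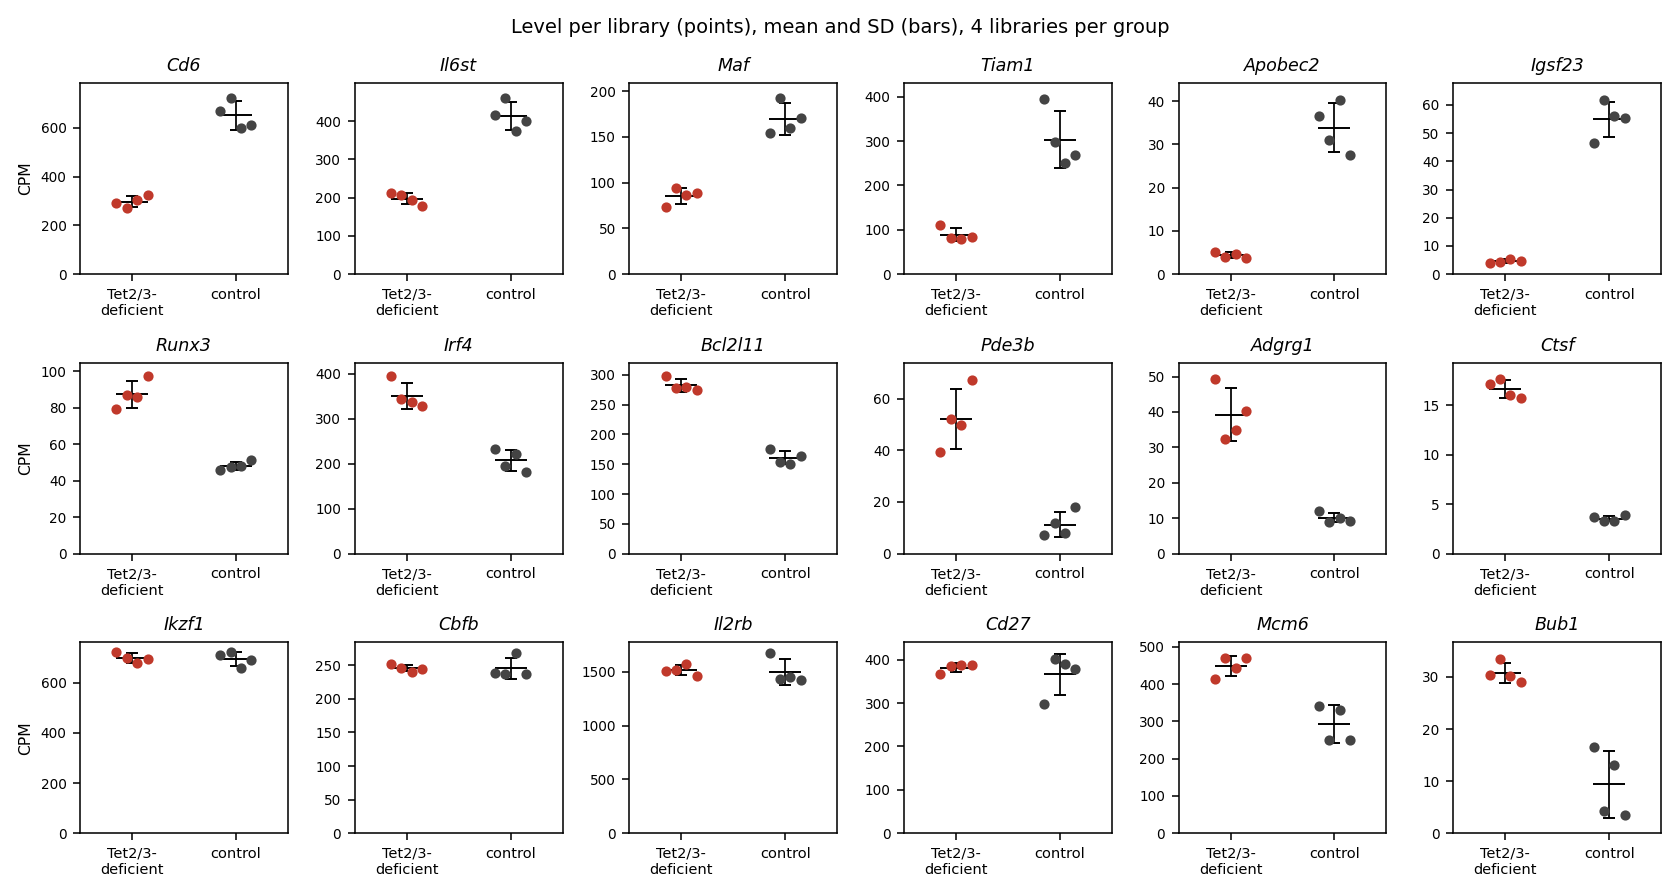
Level in CPM (vertical axes, starting at 0) of 18 genes in each Tet2/3-deficient (red) and control (grey) library, with the mean and SD of 4 libraries per group. Rows 1 and 2 show genes that fell or rose without overlap, and row 3 shows 4 steady genes beside Mcm6 and Bub1, in which 2 control libraries lie above the other 2.

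Gene families were defined by symbol patterns, and of the 103 with at least 8 tested members those with the highest shares of higher, of lower and of fewest calls are described, 6 of each. The patterns were corrected after values had been seen. In the 6 families with the most rises, rises made up 51.3% to 79.2% of tested members, beside 16.7% of all genes. Falls made up 0% to 2.7% of them, beside 15.8%. Over all genes 64.2% were steady. Among the families with the most rises were the MCM helicase and replication origin genes, of which 19 of 24 rose and 0 fell, with a median of 0.75. Mcm6, a subunit of the replicative helicase, was at 413, 471, 443 and 470.4 CPM in Tet2/3-deficient libraries, compared with 342, 249, 332 and 249.6 CPM in controls (0.62 ± 0.11, adjusted p = 0.00182). Mcm10 was at 21.5, 28.7, 25.8 and 24 CPM in Tet2/3-deficient cells, against 15.3, 3.97, 10.5 and 2.7 CPM in controls (1.64 ± 0.50, adjusted p = 0.0439). In both, control S1 and S3 stood above S2 and S4. Without these 2 libraries 20 of the 24 rose, and the log2 fold change of Mcm10 was 2.91. The adjusted p of Mcm10 was 0.0591 to 0.101 when any one of 6 libraries was left out. Orc1 (1.43 ± 0.37), which marks origins, and Cdc6 (1.48 ± 0.44), which loads the helicase there, rose too, Cdc6 with the same split among control libraries and an adjusted p of 0.0622 to 0.0918 when any one Tet2/3-deficient library or control S2 was left out.

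Other families with many rises changed by small amounts. Of 37 nuclear pore and importin genes 21 rose (56.8%, beside 16.7% of all genes) and 0 fell (median 0.22). Of the 37, 30 were steady (81.1%, beside 64.2%). Nup210, which encodes a pore membrane protein, was at 882, 967, 1048 and 937 CPM in Tet2/3-deficient libraries, compared with 699.8, 726, 743 and 638 CPM in controls (0.45 ± 0.07, adjusted p = 0.000544), and Nup205 (0.57 ± 0.07) and the importin gene Ipo7 (0.44 ± 0.06) rose as well. The count of rises was 13 without Tet2/3-deficient S6 or without control S2. The tRNA synthetase genes, which charge tRNAs with amino acids, had 19 of 37 higher and 1 lower (median 0.23), among them the mitochondrial enzyme genes Wars2 (0.47 ± 0.10) and Yars2 (0.45 ± 0.10). Their count of rises was 12 without Tet2/3-deficient S6 or S7. The exons of these families had medians of 5144 bases (pore and importin genes) and 3077 bases (synthetases), and with the length offset 23 and 20 genes rose.

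Of 76 mitochondrial ribosomal protein genes 39 rose and 0 fell, with a median of 0.24 and 68 of them steady. Mrpl32 was at 56.4, 54.3, 55.2 and 51.4 CPM in Tet2/3-deficient cells, against 32.6, 36.1, 37.6 and 36.8 CPM in controls (0.60 ± 0.07, adjusted p = 0.000108). Their exons are short (median 1191 bases), and with the length offset 30 rose and the median was 0.17. Of 17 ATP synthase genes 9 rose and 0 fell, but all 17 were steady. Their median was 0.21, and with the offset it was 0.09 and 5 rose. The cytosolic ribosomal protein genes, of similar exon length (median 776 bases), had 2 of 76 higher, 0 lower and a median of 0.01 without the offset, and 0 higher, 29 lower and a median of -0.10 with it, so their direction depended on this scaling. All 76 were steady under both. Their calls of lower numbered 11 without control S4.

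The family of granzymes, perforin and other granule genes had 5 of 8 higher and 0 lower, with a median of 1.23, and included Gzmf (2.04 ± 0.37), a granzyme gene near absent from control libraries. Its most abundant member, the granule proteoglycan gene Srgn (-0.17 ± 0.06), did not pass (adjusted p = 0.0501) but passed as lower under several alternatives, among them RLE factors, DESeq2, leaving out control S1 or S4 (adjusted p = 0.0457 and 0.0214) and the length offset. The natural killer and CD8 marker sums given above were also higher in all Tet2/3-deficient libraries, but they are not separate from this family or from each other. Nkg7 is counted in the family and in the CD8 sum, and Eomes is counted in both sums. The part of natural killer and CD8 cells in this result was not tested.

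The families with the highest shares of falls came next. Falls made up 50% to 87.5% of their tested members, beside 15.8% of all genes, and rises 0% to 11.8%, beside 16.7%. Of the 8 GIMAP genes, GTPases of lymphocyte survival that lie together in one cluster, 7 fell and 0 rose (median -0.39). Gimap4 was at 447, 503, 483 and 458 CPM in Tet2/3-deficient libraries, compared with 559.9, 786, 764 and 736 CPM in controls (-0.59 ± 0.10, adjusted p = 0.000967). Genes of the T cell receptor complex, its coreceptors and proximal signalling had 9 of 15 lower and 0 higher (median -0.26), with 12 steady. Cd4 was at 583, 553, 612 and 642 CPM in Tet2/3-deficient cells, against 799, 956, 892 and 933 CPM in controls (-0.58 ± 0.07, adjusted p = 0.000118). Cd5 (-0.65 ± 0.08), a brake on receptor signalling, Lat (-0.42 ± 0.07), an adaptor of that signal, and the kinase gene Lck (-0.30 ± 0.07) fell, while Cd3d (-0.05 ± 0.06) did not pass and was steady.

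In the KLF and SP family 10 of 17 fell and 2 rose (median -0.31). Klf2, a factor of quiescence and lymph node homing (-0.40 ± 0.07), Klf3 (-0.65 ± 0.10) and Klf6 (-0.62 ± 0.11) fell. Klf12 went the other way, at 6.56, 6.21, 7.83 and 7.08 CPM in Tet2/3-deficient libraries, compared with 3.4, 1.92, 2.41 and 2.01 CPM in controls (1.51 ± 0.20, adjusted p = 0.00021). Of 14 FOX factors 8 fell and 1 rose (median -0.27). Foxo3 was at 36.1, 38.7, 36.8 and 38.6 CPM in Tet2/3-deficient cells, against 51.2, 61.8, 61.2 and 58.4 CPM in controls (-0.63 ± 0.08, adjusted p = 0.000125), Foxn3 fell more (-0.83 ± 0.16), and Foxo1, which Treg cells need, fell less (-0.33 ± 0.07) and was steady. Among 20 GATA, RUNX and ETS factors 10 fell and 2 rose (median -0.18). Its share of falls was tied with those of the RGS proteins (5 of 10) and the IRF factors (6 of 12), of which it has the most members. Besides Runx1 and Runx2, Gata1 (-0.86 ± 0.10), Etv5 (-0.72 ± 0.12) and Ets1 (-0.31 ± 0.05) fell.

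Of 9 interleukin and cytokine genes 5 fell and 1 rose (median -0.59). Osm, a ligand of gp130 receptors (-0.70 ± 0.09), fell, Csf1, the macrophage growth factor, rose (0.47 ± 0.09), and Il16 (-0.13 ± 0.06) did not pass.

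Families with few calls held single genes that stood apart. In the 6 families with the fewest calls, rises made up 0% to 12.5% of tested members, beside 16.7% of all genes. Falls made up 0% to 10.5%, beside 15.8%. Few calls did not mean steady levels in all of these families. Steady were 3 of 16 GBP and IRG genes (18.8%, beside 64.2% of all genes) and 3 of 13 cytochrome P450 genes (23.1%). Of the Schlafen genes 3 of 8 (37.5%) and of the homeobox factors 11 of 19 (57.9%) were steady. Another 11 of the 16 GBP and IRG genes neither passed nor were steady. In the vacuolar proton pump family 2 of 19 rose, 0 fell and 16 were steady, yet Atp6v0d2, a subunit of macrophages and osteoclasts, was at 32.9, 38.1, 29 and 22.5 CPM in Tet2/3-deficient libraries, compared with 8.75, 10.6, 11.7 and 11.1 CPM in controls (1.54 ± 0.16, adjusted p = 4.49e-05). Of 13 cytochrome P450 genes 1 rose and 1 fell. The one that rose, Cyp11a1, which makes pregnenolone from cholesterol, was at 4.65, 3.44, 3.61 and 4.47 CPM in Tet2/3-deficient cells, against 0.579, 0.32, 0.268 and 0.402 CPM in controls (3.35 ± 0.27, adjusted p = 6.06e-06), and Cyp2d22 fell (-1.27 ± 0.18). In the interferon-induced GBP and IRG family 1 of 16 rose and 1 fell, and both were guanylate-binding proteins. Without control S1 and S3 the falls in this family numbered 4. Gbp2b was at 6.78, 5.6, 5.22 and 4.14 CPM in Tet2/3-deficient libraries, compared with 18.7, 42.2, 24.3 and 42.5 CPM in controls (-2.56 ± 0.30, adjusted p = 0.000513). Gbp2 was at 330.1, 333, 336 and 281 CPM in Tet2/3-deficient cells, against 143, 245, 176 and 256 CPM in controls (0.64 ± 0.18, adjusted p = 0.0292), with an adjusted p of 0.0634 to 0.0729 without control S3 or Tet2/3-deficient S5, S6 or S7. The 2 genes are close in sequence, and how the counting split shared reads is not given in the sources used here. Among 19 homeobox factors 0 rose and 2 fell, Hopx (-1.99 ± 0.09), the most expressed, and Zeb1 (-0.41 ± 0.09), and of 8 Schlafen genes 1 rose, Slfn3 (0.55 ± 0.12).

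**Figure D5:**
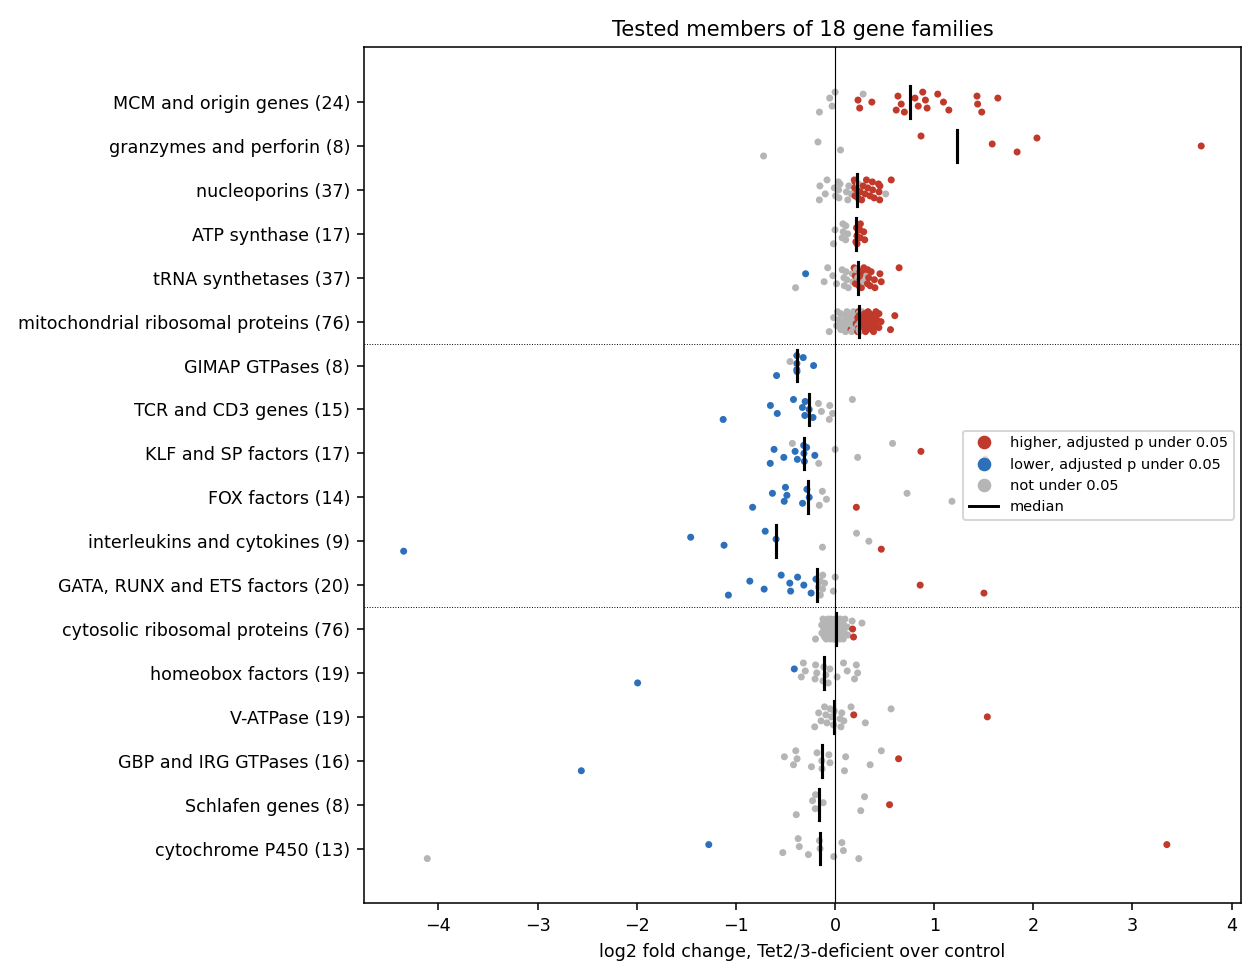
Log2 fold change of Tet2/3-deficient over control (horizontal axis) for the tested members (points) of 18 gene families (rows, with the number of members), coloured by the test, with the family median as a black line. The dotted lines part the 6 families with the highest share of rises, the 6 with the highest share of falls and the 6 with the fewest calls, where Atp6v0d2, Cyp11a1 and Gbp2b stand far from their families.

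TET enzymes act on cytosine followed by guanine (CpG), so calls were set beside the CpG count of each gene's first start-site window in RefSeq (GRCm38.p6; 250 bases before to 50 after the start; the letters CG on the given strand). A window was matched for 9367 of the 11679 tested genes (80.2%). It was matched for 78.3% of the genes changed at least 2-fold, and the shares below, by CpG class, leave out genes without a window. Of 903 genes with at most 5 CpG (9.64% of windows) 5.09% fell and 6.42% rose at least 2-fold, against 1.45% and 3.26% of the 8464 genes with more. These pooled shares mix levels. Steady genes made up 38.5% of CpG-poor and 68.1% of other genes. Within levels, falls of at least 2-fold made up 6.1% of CpG-poor and 6% of other genes under 1 CPM. They made up 9.38% and 5.1% at 1 to 3 CPM, 6.45% and 3.2% at 3 to 10 CPM, and 4.67% and 1.12% at 10 to 30 CPM. At 30 to 100 CPM they made up 1.94% and 0.672% (3 of 155 and 19 of 2827 genes). At 100 to 300 CPM the shares were 2.5% and 0.204% (3 of 120 and 3 of 1474 genes). At 300 CPM or more they were 0% and 0.648% (0 of 49 and 3 of 463 genes). Rises of at least 2-fold ran the other way at low levels, with 12.2% of CpG-poor and 18% of other genes under 1 CPM. At 1 to 3 CPM they made up 8.85% and 15.8%. From 3 to 100 CPM the CpG-poor genes had more rises. The shares were 11% and 6.91% at 3 to 10 CPM and 6% and 2.62% at 10 to 30 CPM. At 30 to 100 CPM they were 3.23% and 0.531% (5 of 155 and 15 of 2827 genes). At 100 to 300 CPM they were 0% and 0.271% (0 of 120 and 4 of 1474 genes). These shares were not tested.

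The bases before the start of 4 genes show how far CpG counts can differ, and are not typical of each direction of change. Over whole windows, genes at least 2-fold lower had a median of 9 CpG and those at least 2-fold higher 18, beside 21 of all. At most 5 CpG were held by 27.2% and 17.4% of them, beside 9.64% of all, and these shares again mix levels. Apobec2 and Kcnj15, which fell, hold 4 and 1 CpG in 250 bases, the steady Cbfb 25 and Phf19, which rose, 31, with the CpG in capitals and the sequence on the gene's strand. The regions in GRCm38.p6 are chr17:48432729-48432978 (minus strand), chr16:95257308-95257557 (plus strand), chr8:105170424-105170673 (plus strand) and chr2:34913977-34914226 (minus strand). They were chosen after their values were seen and show only these letters, not methylation, which was not measured in these libraries.
Apobec2: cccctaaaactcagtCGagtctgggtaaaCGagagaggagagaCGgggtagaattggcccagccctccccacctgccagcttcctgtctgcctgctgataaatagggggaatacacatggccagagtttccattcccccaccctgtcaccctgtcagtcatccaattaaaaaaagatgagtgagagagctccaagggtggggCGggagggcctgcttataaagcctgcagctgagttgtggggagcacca
Kcnj15: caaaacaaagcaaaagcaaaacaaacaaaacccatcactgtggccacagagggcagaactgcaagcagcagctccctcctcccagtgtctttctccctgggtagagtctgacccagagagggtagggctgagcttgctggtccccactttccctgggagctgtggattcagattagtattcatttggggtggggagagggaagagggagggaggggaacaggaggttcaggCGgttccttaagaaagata
Cbfb: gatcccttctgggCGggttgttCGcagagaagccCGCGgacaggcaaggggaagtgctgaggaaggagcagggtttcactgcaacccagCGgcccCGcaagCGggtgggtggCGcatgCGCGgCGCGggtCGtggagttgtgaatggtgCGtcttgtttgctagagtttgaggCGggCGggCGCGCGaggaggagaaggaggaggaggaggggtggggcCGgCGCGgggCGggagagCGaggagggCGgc
Phf19: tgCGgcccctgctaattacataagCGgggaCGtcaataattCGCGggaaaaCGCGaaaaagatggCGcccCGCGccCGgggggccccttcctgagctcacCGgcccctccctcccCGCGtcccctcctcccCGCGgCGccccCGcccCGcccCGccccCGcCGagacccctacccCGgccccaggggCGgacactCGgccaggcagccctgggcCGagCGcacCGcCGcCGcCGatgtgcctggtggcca

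Neighbouring genes were compared by the order of tested genes in RefSeq, which placed 11645 of them. In 1291 neighbouring pairs both genes were called, and 774 pairs (60%) changed the same way. Where both changed at least 2-fold, 47 of 59 pairs did. There were 128 runs of 3 or more neighbours called in one direction, 64 higher and 64 lower. Over all genes 16.7% rose and 15.8% fell, so that 51.4% of called genes were higher. How many such pairs and runs a random gene order would give was not tested. The receptor genes Il1rl1, Il18r1 and Il18rap, which stand side by side, fell together. Il18r1 was at 23.7, 17.8, 16.7 and 16.5 CPM in Tet2/3-deficient libraries, compared with 34.7, 58.1, 51.5 and 56.8 CPM in controls (-1.43 ± 0.17, adjusted p = 0.000271), and Il18rap, the accessory chain for IL-18, at 5.31, 6.27, 5.33 and 4.67 CPM in Tet2/3-deficient cells, against 12.1, 9.66, 7.1 and 6.77 CPM in controls (-0.72 ± 0.19, adjusted p = 0.0153). Il10ra and its neighbours BC049352 (-1.83 ± 0.26) and Tmprss13 (-1.33 ± 0.26) formed another run of falls. The longest runs held 7 genes. One run of falls went from Rela (-0.32 ± 0.06), an NF-kB gene, to Fam89b (-0.26 ± 0.08). One run of rises was of histone genes, from Hist1h2bm (1.41 ± 0.30) to Hist1h2an (1.16 ± 0.29), and another ran from Serf1 (0.89 ± 0.19) through Naip2 (0.46 ± 0.13), Naip5 (0.84 ± 0.12) and Naip6 (1.22 ± 0.18), inflammasome sensors, to Ocln (2.39 ± 0.29). The histone and Naip genes have near-identical copies, so reads could be split between neighbours and these runs are uncertain.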

How the data were processed

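Poly-A RNA of sorted ex vivo Treg cells was sequenced from stranded libraries, per the labels' protocols. Per the submitters' processing notes, the build was mm9 and the tools named include TopHat2 2.1.1. These also include Picard 2.5.0 and SAMtools 1.7, edgeR 3.26.6 under R 3.6.1, and Trim Galore 0.4.2 and bcl2fastq 2.20.0.442. The counter and its annotation are not given in the sources used here. The authors deposited whole-number counts per gene, and FPKM values per gene, which were used only as an alternative and for levels per length. A deposited table of RPM values was not used.

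Counts of the 8 libraries were filtered with filterByExpr, which kept 11679 of 21761 genes. The 92 rows without a symbol entered the filter with the others, under their gene number. Kept counts were scaled by TMM and tested with edgeR 4.0.16's robust quasi-likelihood fit (limma 3.58.1, R 4.3.3). The test was 2-sided, at a Benjamini-Hochberg adjusted p under 0.05. The procedure was tested on simulated data. Library totals were 13397602 to 17672302. Libraries of a group differed by a chi-square of 5.96 to 23.6 per degree of freedom, so none was counted as a copy. Named genes were the TET genes, listed Treg genes, the 25 largest changes in each direction at 10 CPM or more, up to 4 called members and the most expressed member of each described family, and members of neighbouring runs. The members and lists were chosen with earlier results of these data known. Alternatives were RLE factors, no filter, all 20 libraries of the table in the fit, a required 2-fold change, DESeq2 1.42.0, limma on log2(FPKM + 1), and leaving out each library. Leaving out control S1 and S3 together and exon length offsets were chosen after seeing the data.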

Additional observations from a re-analysis of the deposited data

Results flagged for a closer look

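In 8 of 140 groups of 4 libraries looked at (62 genes and 8 marker sums, each in both genotypes), 1 library lay far from the other 3. Chance flags about 1 in 20 such groups. Among the Tet2/3-deficient libraries, S5 was apart for Cd27 (366 CPM, the others 384 to 387 CPM), for Foxn3 (69.8 CPM, the others 53.5 to 54.6 CPM) and for the summed Treg-defining markers (4127 CPM, the others 3917 to 3944 CPM). S8 was apart for Gbp2 (281 CPM, the others 330.1 to 336 CPM). Among the control libraries, S1 was apart for Prdm1 (35.4 CPM, the others 44.9 to 46.7 CPM), for Il2rb (1677 CPM, the others 1426 to 1456 CPM) and for the summed invariant NKT markers (2034 CPM, the others 1802 to 1829.6 CPM). S3 was apart for Cbfb (269 CPM, the others 236 to 239 CPM).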

How the results depend on the processing

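No paired analysis was possible because the library numbers in the columns match no replicate number in the labels. With a 2-fold change required by the test, 169 genes were changed, 87 higher and 82 lower, and of the Treg genes 8 fell and 3 rose, since this asks for more than a difference from 0. Ranking genes by FPKM in place of CPM put 52.2% of calls higher at the top levels, against 32.5%. Leaving out 1 library gave 2831 to 4141 changed genes, 1412 to 2191 higher and 1376 to 1950 lower, and 83 to 92 lower and 20 to 25 higher Treg genes. DESeq2 called 4032 genes, and limma on log2(FPKM + 1) 3881, of which 2419 were higher and 1462 lower, beside 1953 and 1847 in the edgeR test. Without control S1 and S3, which stood apart, 4277 genes were called. Followed one by one were 287 genes that passed the test, taken from the named genes, lists and families above and not from all calls. Of these, 246 kept their direction and call with RLE factors, no filter, all libraries of the table, DESeq2, limma and each library left out. Over all tested genes, 1221 of the 1953 higher and 1207 of the 1847 lower calls held in all 13 of these fits. The calls among cytosolic ribosomal protein genes were 0 higher and 29 lower with exon length offsets, and 2 higher and 0 lower without them. Depth limited low genes most: under 1 CPM 0.448% of genes had an interval inside 1.5-fold.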
